A study of Mus musculus with 12 samples.

Results

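Bone marrow-derived macrophages (BMDMs) of homozygous HSS9 knockout (KO) mice were compared 6 hr after lipopolysaccharide (LPS) and without it. HSS9 is a hypersensitive site upstream of Tnf with enhancer activity. Tnf encodes the cytokine tumor necrosis factor alpha. The deletion is constitutive, so every cell of the animal lacks the site. The 6 KO libraries, 3 with LPS and 3 given PBS and called UT, were taken by their labels out of 12 libraries in the series. The other 6 came from BMDMs of HSS9+/+ (WT) mice under the same conditions, which the labels call littermates. The methods state that C57BL/6 mice were bought and that KO mice were bred as homozygous pairs. They do not name the source of these WT mice. All mice were male by the methods, and all cells were grown from femur and tibia marrow for 6 days in medium with L929-conditioned supernatant, the usual source of the macrophage growth factor CSF1. The LPS dose of these cultures was not given in the sources used here. The labels do not say whether the libraries of a group came from separate mice, so p-values measure the spread between these libraries, which may be technical.

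LPS is a component of the outer membrane of Gram-negative bacteria. Macrophages sense it through TLR4 with its coreceptors CD14 and MD-2 (Ly96). An early wave of signalling reaches NF-kappaB and AP-1 and induces cytokines and chemokines. A later wave runs through IRF3 and secreted interferon beta, whose receptor induces the interferon-stimulated genes. By the time point studied here, both waves, feedback inhibitors and a shift in metabolism are known to be under way in macrophages.

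The KO libraries held 29430634 to 33629094 counts. Values are CPM, the count of a gene relative to the TMM-scaled total of its library. They are given for the 3 libraries of a group in the order of their replicate numbers. Differences between LPS and UT are log2 fold changes from edgeR with a standard error (SE). This SE is the absolute log2 fold change divided by the square root of the edgeR quasi-likelihood F. It is approximate and can be too small for genes with few counts in a group. Levels of different genes are compared only as CPM per kilobase of merged exon. Calls of higher or lower needed a log2 fold change above 1 or below -1 and an edgeR adjusted p under 0.05. The cells carried macrophage markers in all 6 libraries. Adgre1, the F4/80 antigen, was at 2233, 2299 and 2392 CPM in UT and 3131, 3150 and 3227 CPM in LPS libraries, and Csf1r was at 2207 to 2305 and 2063 to 2191 CPM. Of the markers of other cells, Cd3e, Cd3g, Cd79a, Pax5, Ly6g, Hbb-bs and Hba-a1 had at most 3 counts in any KO library. Other markers were expressed. The summed level of the B cell list was 38.2 to 40.2 CPM in UT and 1.68 to 1.88 CPM in LPS libraries, nearly all of it Ighm. That of the erythroid or megakaryocyte list was 35.8 to 42.5 and 70.4 to 72.9 CPM, most of it the platelet chemokine Pf4 (0.95), and neither of its 2 tested members was called. The neutrophil list was at 43.3 to 49.4 and 67.3 to 76.8 CPM. The part of these markers in the results was not tested. Of 10 macrophage markers 4 were higher with LPS and 2 lower, and of 7 stromal markers 3 were higher, with a summed level of 12.7 to 13.3 CPM in UT and 37.7 to 38.5 CPM in LPS libraries. In bulk RNA, fewer cells of a type and less RNA per cell cannot be told apart. The share of counts on short structured RNAs differed between the KO groups, at 9.57 to 11% in UT and 5.75 to 5.94% in LPS libraries. With these RNAs removed before scaling, 5708 genes were called in the KO response in place of 5741.

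The response of KO macrophages was broad. Of 15523 genes tested, 2741 were higher with LPS (17.7%) and 3000 were lower (19.3%), and the median log2 fold change over all genes was -0.06. With library totals in place of TMM scaling that median moved to -0.56, and the calls became 1794 higher and 5119 lower, so that 25.95% of calls were higher in place of 47.74%. Changes below are relative to the TMM scale. The response was steeper upwards than downwards. A log2 fold change above 4 was seen in 475 higher genes, and one below -4 in 222 lower genes. The first principal component of the 6 KO libraries held 90.4% of the variance, with the LPS libraries between -99.9 and -98.8 and the UT libraries between 97.8 and 100.1. The ranges of the LPS and UT libraries did not overlap for 2704 of the higher and 2952 of the lower genes, as against 11802 of all genes tested.

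**Figure D1:**
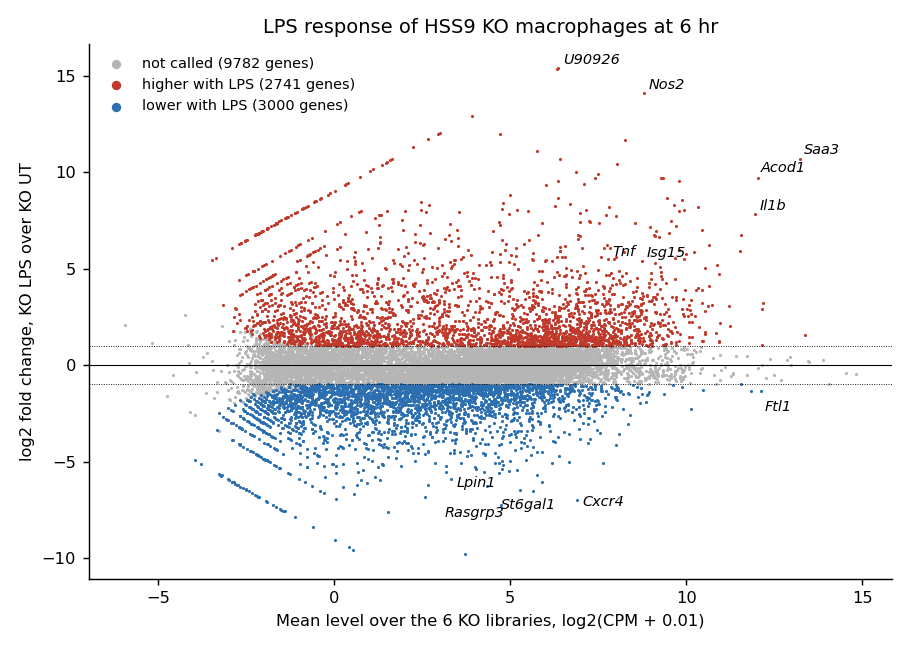
Each point is 1 of 15523 genes, with its mean level over the 6 KO libraries as log2(CPM + 0.01) on the x axis and its log2 fold change of KO LPS over KO UT on the y axis. Red and blue mark the 2741 genes called higher and the 3000 called lower. Dotted lines stand at 1 and -1, and the slanted streaks at low levels are genes without counts in one group.

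The response also took over much of the library. Genes called higher held 12.6 to 13.0% of all counts in the UT libraries and 45.6 to 46.0% in the LPS libraries. Genes called lower held 12.8 to 12.9% in UT and 2.87 to 2.90% in LPS libraries. These genes were called on the same libraries, so the direction follows from the choice and the size is a description. A group of 204 higher genes, 115 of them protein coding, had at most 3 counts in each UT library, and 245 lower genes, 136 of them protein coding, had at most 3 counts in each LPS library. By gene type, 2035 of 12231 protein-coding genes were higher and 2501 lower. Of 1175 long noncoding genes, 245 were higher and 289 lower. Provisional loci of the annotation (biotype TEC) leaned the other way, with 215 of 762 higher, 80 lower and a median log2 fold change of 0.43. So did small noncoding genes, with 77 of 347 higher, 22 lower and a median of 0.38. Pseudogenes had 160 of 942 higher (17.0%), near the 17.7% of all genes, and 93 lower (9.87%). Their median was -0.05.

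**Figure D2:**
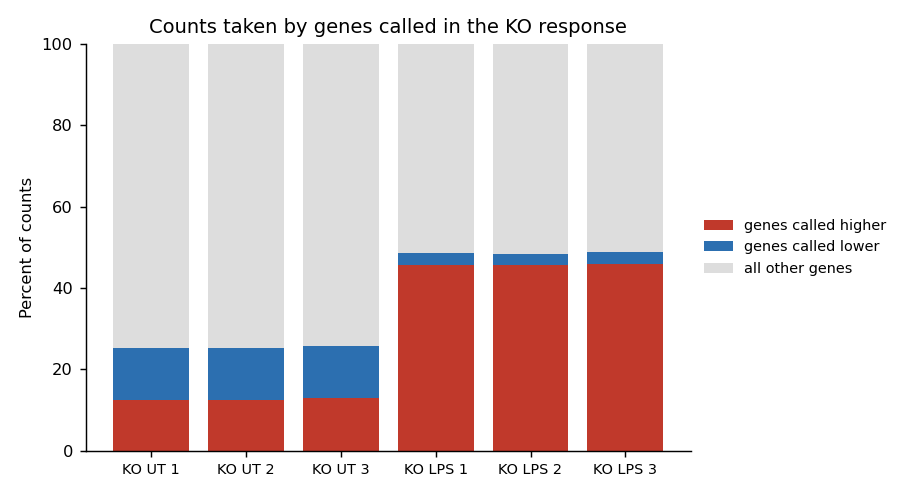
Stacked bars give, for each of the 6 KO libraries, the percent of all counts on genes called higher (red), called lower (blue) and all other genes (grey). The red share is 12.6 to 13.0% in UT and 45.6 to 46.0% in LPS libraries.

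Tnf, the readout of the deletion (chr17:35199381-35202007, minus strand, GRCm38), still responded in KO cells. Its level was 9.51, 10.5 and 9.10 CPM in the UT libraries and 422, 449.5 and 425 CPM in the LPS libraries. Every LPS library lay far above every UT library, and the log2 fold change was 5.48 ± 0.0762 (SE, n = 3 per group, edgeR adjusted p = 1.58e-23), a 44.5-fold rise. In WT libraries Tnf rose by a log2 fold change of 5.86, and the difference of the responses, -0.38 ± 0.0948 (edgeR adjusted p = 0.00763), did not reach the fold change needed for a call. The level of Tnf was lower in KO in both states, 9.71 ± 0.727 against 15.3 ± 0.757 CPM in UT and 432 ± 15.2 against 889.7 ± 57.4 CPM with LPS (mean ± SD, n = 3), with no overlap between the genotypes.

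The proinflammatory cytokine list rose with Tnf. Of its 14 tested members 13 were higher and 1 lower, with a median log2 fold change of 5.58. Il1b, the secreted interleukin 1 of the inflammasome pathway, rose from 32.8, 35.2 and 36.0 CPM to 8093, 8307 and 7496 CPM (7.84 ± 0.0689). Its partner Il1a rose by 10.42 ± 0.161, and Il6, the cytokine that drives the acute-phase response, went from 0.376, 0.117 and 0.177 CPM to 233, 232 and 234 CPM (10.01 ± 0.197). The LPS libraries of each lay above all UT libraries. The subunits of interleukin 12 and its relatives also rose, Il12b by 5.69, Il27 by 7.37 and Ebi3 by 2.94 on the log2 scale, and Il12a, at 0 to 3 counts in UT libraries, rose at least 44.4-fold. Il33, an alarmin better known from epithelium, was at 0 counts in all UT libraries and at 2.80, 2.85 and 2.16 CPM with LPS, at least 31.2-fold higher. Osm, the gene of oncostatin M, went against the list. It stood at 53.4, 51.4 and 51.0 CPM in UT and 9.12, 7.55 and 9.29 CPM in LPS libraries and fell by 2.58 ± 0.0755 on the log2 scale.

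Chemokines formed the other secreted block. Of 11 CC chemokines 10 were higher and 0 lower, with a median log2 fold change of 6.74, and of 11 CXC chemokines 8 were higher and 0 lower, with a median of 5.52. Ccl5, an attractant of T cells and monocytes, was at 6.13, 5.14 and 3.92 CPM in UT and 1562, 1593 and 1693 CPM in LPS libraries, a log2 fold change of 8.33 ± 0.116. Ccl3 and Ccl4, the macrophage inflammatory proteins, rose by 6.74 and 6.82, and the monocyte attractants Ccl2 and Ccl7 by 6.74 and 7.49. Ccl9 differed from these in its start: it was already at 1036 to 1097 CPM in UT libraries and reached 7579 to 8282 CPM. The interferon-induced CXCR3 ligands were induced from low levels. Cxcl10 went from 5.41, 5.61 and 4.35 CPM to 1955, 1957 and 1778 CPM (8.54 ± 0.0891), Cxcl9 rose by 8.81, and Cxcl11 had 0 counts in all UT libraries and 151 to 166 CPM in LPS libraries, at least 1908-fold higher. The neutrophil attractants Cxcl1, Cxcl2 and Cxcl3 rose by 6.06, 5.52 and 8.42. Ccl6, Cxcl14, Ppbp and Pf4 were not called, with log2 fold changes from -0.55 to 0.95.

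**Figure D3:**
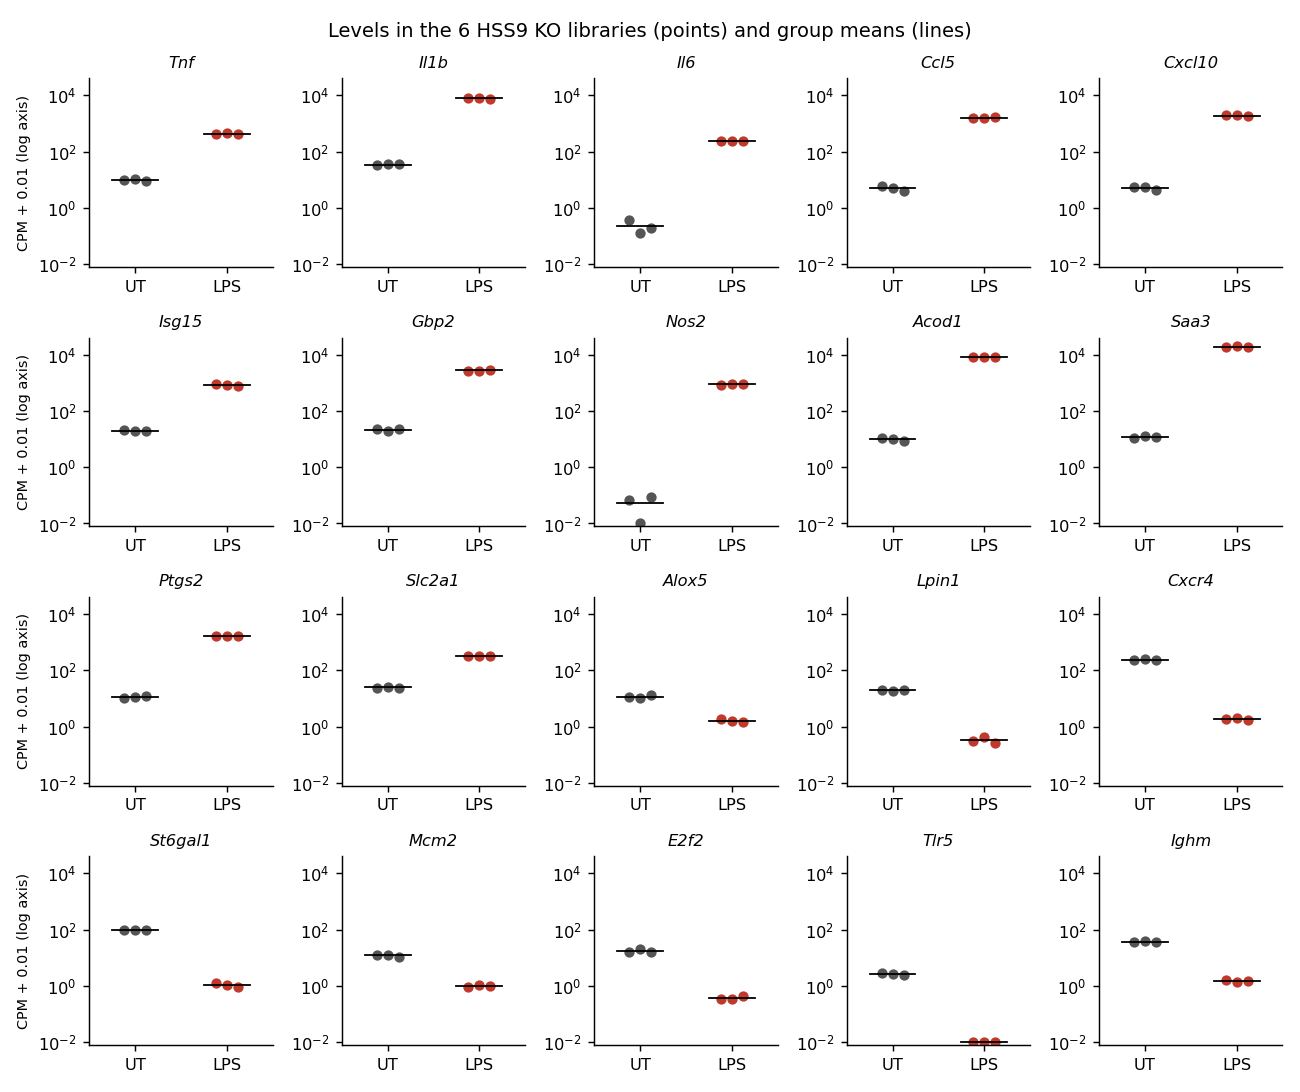
Levels of 20 genes as CPM + 0.01 on a log axis, with 1 point per KO library (3 UT, 3 LPS) and a line at the group mean. A point at 0.01 is a library with 0 counts, as for Tlr5 with LPS. In all 20 genes the LPS points lie clear of the UT points.

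The 10 largest fitted fold rises among protein-coding genes with a mean of at least 5 CPM in KO libraries were mostly of enzymes and secreted proteins. Cxcl11, with a similar fold, was outside this group because the annotation types it as a polymorphic pseudogene. For genes at 0 to 3 counts in UT libraries only a bound on the fold is known, so their place in the 10 is uncertain. Acod1, 829-fold higher, ranked below some genes whose bound is smaller. U90926, a transcript of little known function, had 0 counts in all UT libraries and 149.5, 165 and 176 CPM with LPS, at least 1955-fold higher. Nos2 (chr11:78920787-78960254, plus strand), the inducible nitric oxide synthase, had 0 to 3 counts in UT libraries and 865, 883 and 912 CPM with LPS, at least 10610-fold higher. Csf3, the granulocyte colony-stimulating factor, had 0 counts in UT and 26.9 to 31.5 CPM in LPS libraries, at least 358-fold higher. By the same bound Il19, a cytokine of the interleukin 10 family, was at least 629-fold higher and Shisa3 at least 1306-fold. Lipg, the endothelial lipase, went from 0.173, 0.323 and 0.0759 CPM to 586, 606 and 636 CPM (11.66 ± 0.157), and Cd38, an enzyme that consumes NAD, from 0.0578, 0.206 and 0.0506 CPM to 170, 172 and 174 CPM (10.67 ± 0.194). Gm15056, a predicted gene at least 153-fold higher, completed the 10 with Saa3 and Il1a.

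Apart from Saa3, other called genes led by the rise in amount, as the change in CPM per kilobase. Saa3 (chr7:46711998-46715700, minus strand), an acute-phase apolipoprotein made by macrophages, went from 11.2, 12.6 and 11.8 CPM to 19350, 19660 and 18590 CPM. Per kilobase this was a rise from 4.55 to 7368 CPM, the largest among protein-coding genes called higher. Il1b reached 4177 and Acod1 3184 CPM per kilobase from 18.2 and 3.85. Actb and B2m, which encode cytoskeletal actin and the light chain of MHC class I, rose by only 1.56 and 1.03 on the log2 scale, yet their change per kilobase ranked with that of genes induced from near silence, at 2004 to 5923 and 3438 to 7041 CPM per kilobase. B2m was no longer called with library totals (0.53) or upper-quartile scaling (0.85). Ccl9, Ccl4, Ccl5, Wfdc17 and Gm49342 made up the 10. Reads of Gm49342 are uncertain, since it overlaps Pnp and Pnp2 on the same strand.

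Acute-phase and antimicrobial genes rose together. Of 13 members 11 were higher and 0 lower, with a median log2 fold change of 6.71. Lcn2, which binds bacterial siderophores, rose by 8.37 ± 0.137, and haptoglobin (Hp) and ceruloplasmin (Cp), plasma proteins of hemoglobin and copper, by 6.71 and 7.42. The formyl peptide receptors Fpr1 and Fpr2, which sense bacterial peptides, rose by 8.03 and 7.81. Clec4e, the C-type lectin Mincle, was at 94.2, 93.2 and 102 CPM in UT and 5765, 5863 and 5784 CPM in LPS libraries. Lysozyme (Lyz2) was not called, at 27980, 26960 and 27090 and 20750, 20920 and 19200 CPM. Some of these genes are also neutrophil genes. Of 7 tested neutrophil markers 2 were higher and 5 lower, and Ly6g was at 0 counts in all 6.

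Negative feedback accompanied the induction. Of 21 feedback and anti-inflammatory genes 16 were higher and 0 lower, with a median of 3.48. Il1rn, the interleukin 1 receptor antagonist, went from 8.12, 8.75 and 9.13 CPM to 2512, 2565 and 2702 CPM (8.22 ± 0.0756). Socs3 and Socs1, inhibitors of cytokine receptor signalling, rose by 7.34 and 5.71. Tnfaip3 (A20) and Nfkbia (IkappaBalpha), inhibitors of NF-kappaB, rose by 5.06 and 3.48, Il10 by 3.52 and Cd274 (PD-L1) by 4.48. The early inhibitors Dusp1 and Zfp36 were not called, with log2 fold changes of 0.75 and 0.66. Of the 5 NF-kappaB subunit genes, 4 were higher, Nfkb2 most (2.72), and Rela was not called (0.88). In contrast, the immediate early AP-1 genes Fos and Fosb stood lower than in UT cells. Fos was at 224, 228 and 227 CPM in UT and 61.8, 63.8 and 69.3 CPM in LPS libraries, and Fosb fell by 5.09 ± 0.158. The AP-1 list as a whole did not stand apart, with 4 of 16 higher and 3 lower beside 17.7% and 19.3% of all genes. With library totals 2 were higher and 6 lower.

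Interferon-stimulated antiviral genes rose without exception on this scale. All 30 tested members were higher, with a median log2 fold change of 4.16. Rsad2 (viperin), an inhibitor of viral replication, went from 54.0, 55.4 and 57.0 CPM to 5981, 5889 and 6157 CPM (6.76 ± 0.0623), and Mx1, an antiviral GTPase, from 40.7, 41.8 and 43.2 CPM to 3151, 3143 and 3164 CPM (6.23 ± 0.0544). Isg15, a ubiquitin-like modifier, and its protease Usp18 rose by 5.40 and 4.80, and Ifi205, a DNA sensor family gene, by 9.68. The smallest rise was that of Ifitm3, 1.36, which was not called with library totals (0.85). Levels within the Ifi200, Ifit, Oas and Slfn families are uncertain where near-identical copies share reads. Upstream, Ifnb1 was at 0 counts in all UT libraries and at 0.997, 0.864 and 0.878 CPM with LPS, at least 10.9-fold higher. The signal transducer Stat2 rose by 3.02 and Irf7, the amplifier of interferon genes, by 3.64. Irf3, Irf5 and Irf8 were not called (0.17, 0.56 and -0.06), nor was Irf9, which rose by 0.99, just under the threshold. Irf4 went against Stat2 and Irf7, from 5.0, 3.88 and 4.38 to 0.575, 0.0375 and 0.622 CPM (-3.41 ± 0.347). The receptor chains moved apart: Ifnar1 rose by 2.02 and Ifngr2 by 1.08, and Ifngr1 fell by 1.16. Ifngr2 was not called with library totals (0.58) or upper-quartile scaling (0.90).

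The guanylate-binding proteins and immunity-related GTPases, which attack the vacuoles of intracellular pathogens, followed with 14 of 15 higher, 0 lower and a median of 5.59. Gbp5 went from 3.61, 3.11 and 3.59 CPM to 1375, 1363 and 1469 CPM (8.67 ± 0.0993) and Gbp2 from 22.1, 20.2 and 22.6 CPM to 2733, 2692 and 2899 CPM (7.0 ± 0.0761). Gbp8 was not called (-0.06 ± 0.203). All 7 Schlafen genes were higher, from 2.62 for Slfn3 to 7.99 for Slfn4.

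Some genes of each of these groups hold letters of the interferon-stimulated response element (ISRE), the site bound by the interferon-activated factors. The search used TTTCNNTTTC on both strands in the 250 bases before each RefSeq start. The letters were in 3.46% of the promoters of 27025 genes and in 3.55% of 9632 tested protein-coding genes with a promoter sequence. They were in 7.25% of 1586 genes called higher and in 2.46% of 1912 called lower. By list they were in 10 of 22 interferon-stimulated antiviral genes and 3 of 7 Schlafen genes. Of guanylate-binding protein and immunity-related GTPase genes 9 of 10 held them. So did 3 of 16 genes of the DNA repair list, which was mostly lower. By comparison the loose NF-kappaB pattern GGGNNNNNCC separated little, at 67.9% of the higher and 67.5% of the lower genes against 66.1% of those tested, and a match is no proof of binding. A promoter of Isg15, Ifit1, Gbp2 and Gbp5 is printed here because these genes rose together and hold the letters, which stand in capitals. All are the 250 bases before the start, 5′ to 3′ on the strand of the gene, GRCm38.p6 (RefSeq). Isg15 is chr4:156200819-156201068 on the minus strand, Ifit1 chr19:34640639-34640888 on the plus strand, Gbp2 chr3:142620413-142620662 on the plus strand and Gbp5 chr3:142496684-142496933 on the plus strand.
Isg15: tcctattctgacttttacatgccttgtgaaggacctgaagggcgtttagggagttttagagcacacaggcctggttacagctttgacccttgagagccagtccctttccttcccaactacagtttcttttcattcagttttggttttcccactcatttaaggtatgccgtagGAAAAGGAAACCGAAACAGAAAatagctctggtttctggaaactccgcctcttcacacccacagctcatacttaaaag
Ifit1: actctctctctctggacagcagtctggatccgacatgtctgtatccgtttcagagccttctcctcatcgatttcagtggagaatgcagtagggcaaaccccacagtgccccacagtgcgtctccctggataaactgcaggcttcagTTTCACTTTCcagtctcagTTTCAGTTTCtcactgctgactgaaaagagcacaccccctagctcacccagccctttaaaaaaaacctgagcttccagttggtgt
Gbp2: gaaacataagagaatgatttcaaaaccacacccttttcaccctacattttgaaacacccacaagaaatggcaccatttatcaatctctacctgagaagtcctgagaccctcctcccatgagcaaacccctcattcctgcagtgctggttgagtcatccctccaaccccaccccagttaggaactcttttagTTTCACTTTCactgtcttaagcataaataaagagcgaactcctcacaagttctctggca
Gbp5: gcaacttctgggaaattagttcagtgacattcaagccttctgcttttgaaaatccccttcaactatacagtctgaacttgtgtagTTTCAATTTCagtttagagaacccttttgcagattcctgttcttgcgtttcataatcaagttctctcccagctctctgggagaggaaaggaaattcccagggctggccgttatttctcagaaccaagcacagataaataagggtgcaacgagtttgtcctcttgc
Isg15 held 3 overlapping matches from 78 bases before the start, Ifit1 held 2 and the other promoters 1 each.

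Genes of nitric oxide, arginine and itaconate metabolism rose together. Of 9 genes 8 were higher and 0 lower, with a median of 5.60. Acod1 (chr14:103046977-103056573, plus strand), which makes itaconate from a TCA cycle intermediate, went from 11.4, 10.3 and 8.57 CPM to 8196, 8321 and 8536 CPM (9.70 ± 0.0930). The arginine transporter Slc7a2 rose by 9.68 and Ass1, which recycles citrulline, by 5.60, and Gch1, needed for the cofactor of Nos2, by 3.34. Asl, the enzyme after Ass1, was not called (-0.55).

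The eicosanoid pathway split in part by branch. Of its 13 genes 6 were higher and 6 lower, beside 17.7% and 19.3% of all genes. With library totals or upper-quartile scaling 4 were higher, and with a library left out 5 to 6. On the prostaglandin E2 side, Ptgs2 (COX-2) went from 10.8, 11.2 and 12.1 CPM to 1700, 1614 and 1707 CPM (7.20 ± 0.0922). Ptges, the terminal synthase, rose by 9.52 ± 0.105, while Ptges2 was not called (0.72). The phospholipase Pla2g4a, upstream of both branches, rose by 4.95. All 4 listed genes of the leukotriene side were lower. Alox5, the 5-lipoxygenase, went from 11.2, 9.99 and 12.9 CPM to 1.88, 1.54 and 1.43 CPM (-2.82 ± 0.181), and its helper Alox5ap fell by 1.19, Lta4h by 1.42 and Ltc4s by 2.89. Ptgs1 (COX-1) and the prostaglandin D2 synthase Hpgds fell (-2.03 and -1.84).

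Glycolysis genes rose. Of 22 genes of glycolysis and HIF1 16 were higher and 1 lower, with a median of 1.6. The glucose transporter Slc2a1 went from 23.9, 25.5 and 24.4 CPM to 314, 311 and 311 CPM (3.67 ± 0.0584), Pfkfb3, which drives flux at phosphofructokinase, rose by 5.30, Hif1a by 3.44 and the lactate exporter Slc16a3 by 2.77. Gapdh rose by 1.54, but its reads are uncertain because of its many pseudogenes. Vegfa, a HIF1 target, went the other way, from 268, 259.8 and 256 CPM to 39.2, 37.8 and 41.0 CPM (-2.73 ± 0.0576). Of 19 TCA cycle genes 0 were higher and 3 lower, beside 19.3% of all genes, and 6 were lower with library totals and 5 with upper-quartile scaling. The 3 were Suclg2 (-1.46) and the NADP-dependent isocitrate dehydrogenases Idh1 (-2.26), which is cytosolic, and Idh2 (-1.77). The subunits of the NAD-dependent enzyme of the cycle, Idh3a, Idh3b and Idh3g, were not called (0.23, -0.27 and -0.88).

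Of 17 redox and iron genes 8 were higher and 2 lower, beside 17.7% and 19.3% of all genes. Sod2, the mitochondrial superoxide dismutase, went from 87.0, 90.6 and 88.5 CPM to 2836, 3027 and 2777 CPM (5.02 ± 0.0589), and Slc7a11, the cystine importer, rose by 7.17. The NRF2 targets Nqo1, Gclm, Gclc and Srxn1 were not called, with log2 fold changes from -0.45 to 0.29. For iron, the importers Slc11a2 and Slc39a14 rose by 2.24 and 4.33, while the exporter ferroportin (Slc40a1) went from 63.1, 63.4 and 69.9 CPM to 6.48, 4.39 and 5.71 CPM (-3.57 ± 0.122). The ferritin chains parted: Ftl1 fell by 1.36 ± 0.0720, from 4760 to 1859 CPM per kilobase, and Fth1 stood at 6765 to 6854 CPM in UT and 8998 to 9305 CPM in LPS libraries without a call (0.42). Ferritin genes also have processed pseudogenes that can share reads.

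Antigen presentation was induced on the class I side. Of 16 MHC class I genes 15 were higher and 0 lower, with a median of 2.43, among them the peptide transporter Tap1 (3.59), the immunoproteasome subunit Psmb9 (2.25) and the class I transactivator Nlrc5 (3.43). Of 9 class II genes 1 was higher, H2-Ab1 (1.06, not called with library totals at 0.55 or upper-quartile scaling at 0.87), and 1 lower, the class II transactivator Ciita, at 21.2, 18.6 and 18.1 CPM in UT and 5.71, 5.52 and 4.98 CPM in LPS libraries (-1.84 ± 0.106). Each count is below the share of all genes called. Lower calls were 2 without KO LPS replicate 1 or with upper-quartile scaling and 3 with library totals. Of 14 costimulatory and adhesion genes 12 were higher and 0 lower. Cd40 went from 8.01, 8.87 and 9.00 CPM to 1528, 1567 and 1450 CPM (7.45 ± 0.0724), Cd69 rose by 7.88 and Cd86 by 3.44, whereas its relative Cd80 was not called (-0.11).

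Of 9 inflammasome genes 7 were higher and 0 lower, including the sensor Nlrp3 (3.14), Casp1 (2.85) and Casp4 (3.82), the sensor of cytosolic LPS. Of 20 genes of the BCL2 family and apoptosis 9 were higher and 3 lower, beside 17.7% and 19.3% of all genes. Bcl2a1d, a survival gene, rose by 6.24, Cflar, an inhibitor of caspase-8, by 3.97, and the death receptor Fas by 3.95. The pro-apoptotic Bcl2l11 (BIM) fell by 1.31 and the survival gene Bcl2 by 1.71. The Bcl2a1 genes are near-identical copies and their levels are uncertain.

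Of 14 Toll-like receptors and coreceptors 7 were higher and 2 lower, the latter below the 19.3% of all genes. Tlr3, the sensor of double-stranded RNA, rose by 3.66, Tlr2 by 2.49 and Cd14 by 2.16, whereas Tlr4 itself was not called, at 165, 172 and 184 CPM in UT and 119, 119.9 and 134 CPM in LPS libraries (-0.48 ± 0.0665). Tlr5, the flagellin receptor, was at 2.89, 2.73 and 2.38 CPM in UT and 0 counts in all LPS libraries, at least 23.7-fold lower. Tlr13, a sensor of bacterial ribosomal RNA, fell by 1.5. Of 20 scavenger and phagocytic receptors 8 were higher and 7 lower. The scavenger receptor Msr1 rose by 3.99 and the Fc receptor Fcgr2b by 5.51, while Mertk, which clears apoptotic cells, fell by 2.47, the mannose receptor Mrc1 by 1.28 and Trem2 by 1.12. For migration, Cxcr4 (chr1:128588199-128592293, minus strand), the receptor that retains cells in marrow, went from 236, 243 and 225 CPM to 1.92, 1.99 and 1.65 CPM (-6.98 ± 0.0925), among 11 chemokine and chemoattractant receptors of which 4 were higher and 2 lower (2 and 3 with library totals), the latter near the share of all genes. Ccr1 rose by 2.99. Of 20 growth factor and G protein-coupled receptor genes 6 were higher and 7 lower, beside 17.7% and 19.3% of all genes. The oxysterol receptor Gpr183 fell by 4.08, while Ch25h, the enzyme that makes the precursor of its ligand, rose by 8.68 ± 0.162. The adenosine receptors Adora2a and Adora2b and the fatty acid receptor Gpr84 rose by 6.46, 4.60 and 7.38, and both chains of the transforming growth factor beta receptor fell, Tgfbr1 by 1.80 and Tgfbr2 by 1.85.

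Genes of the matrix rose in part, and the balance of complement genes depended on the scaling. Of 14 matrix metalloproteinases, relatives and inhibitors 8 were higher and 1 lower. The collagenase Mmp13 went from 6.77, 7.58 and 7.92 CPM to 1927, 1882 and 2010 CPM (8.03 ± 0.0954) and the membrane-bound Mmp14 from 2.49, 2.53 and 2.30 CPM to 472, 484 and 570.4 CPM (7.71 ± 0.102). The inhibitors went apart, with Timp1 at 5.93 and Timp2 at -1.54. Of 12 complement genes 5 were higher and 1 lower, but 3 were higher and 4 lower with library totals, and 3 were higher with a filter at a mean of 1 CPM. Factor B (Cfb) was at 0, 0.0294 and 0.0506 CPM in UT and 6.90, 9.35 and 7.68 CPM in LPS libraries, at least 95.5-fold higher, and C3 rose by 3.54. C1qa, C1qb and C1qc, the chains that start the classical pathway, were not called (-0.66, -0.49 and -0.70). Both tested colony-stimulating factors, Csf3 and Csf1 (2.86), were higher.

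**Figure D4:**
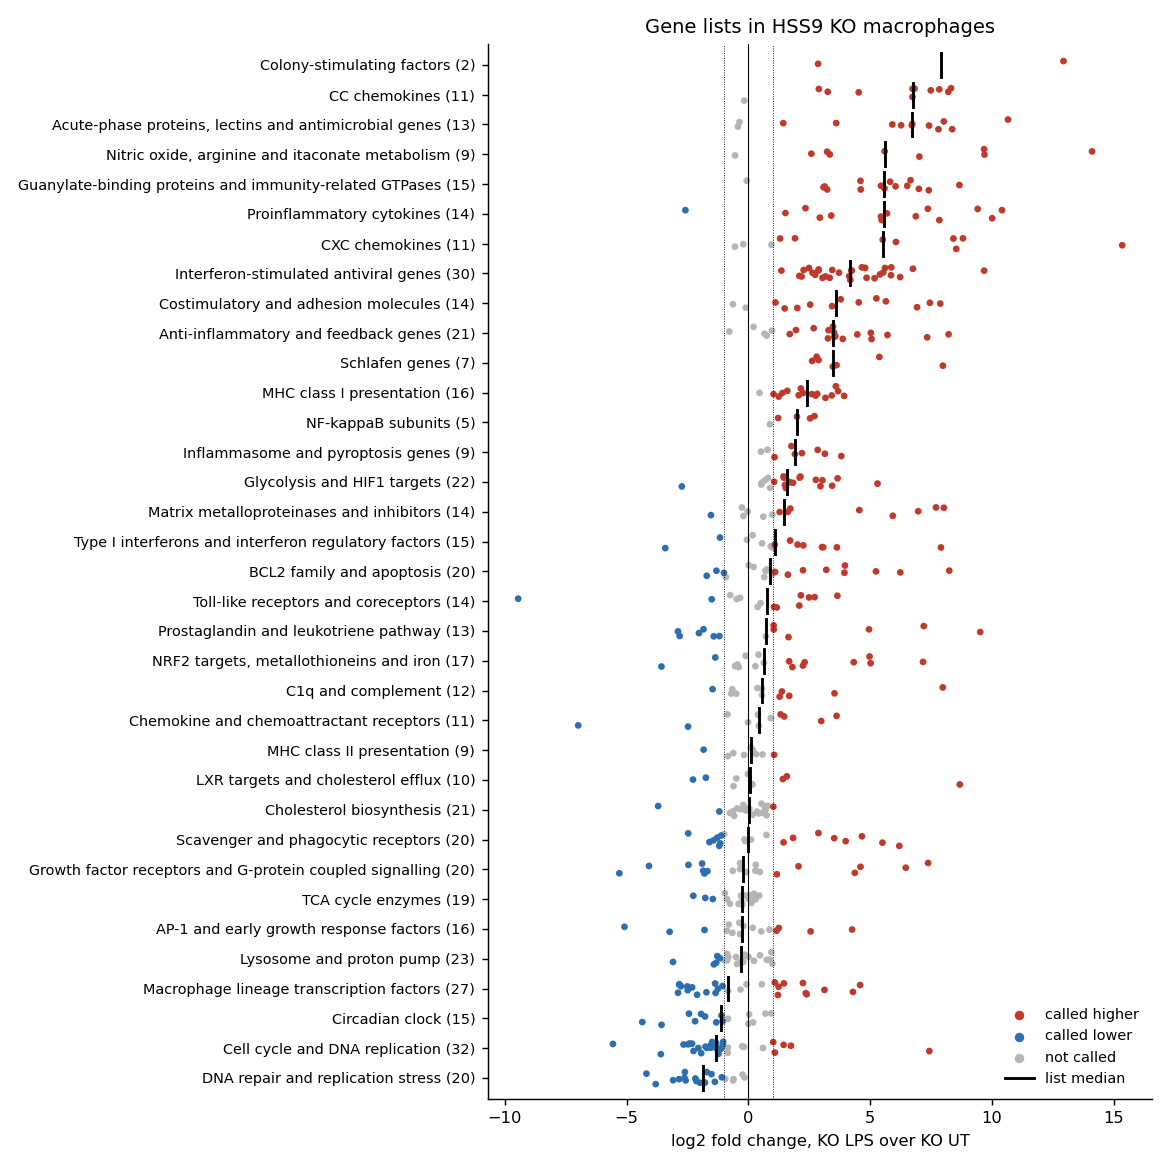
Each point is the log2 fold change of KO LPS over KO UT of a tested member of 35 gene lists, with the number tested in parentheses and a black bar at the list median. Red, blue and grey mark members called higher, called lower and not called. Colony-stimulating factor, CC chemokine and acute-phase lists have the highest medians, and DNA repair, cell cycle and clock lists the lowest.

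The 10 largest fold falls held other signalling and lipid genes besides Cxcr4. Rasgrp3 (chr17:75435896-75529054, plus strand), an activator of Ras and Rap, went from 51.2, 52.5 and 53.8 CPM to 0.307, 0.713 and 0 CPM (-7.27 ± 0.257). St6gal1, a sialyltransferase, went from 98.7, 97.7 and 100.2 CPM to 1.30, 1.09 and 0.878 CPM (-6.50 ± 0.112) and Cd28, better known as a costimulatory receptor of T cells, from 114, 117 and 120.5 CPM to 1.34, 1.61 and 2.23 CPM (-6.07 ± 0.105). No LPS library reached a UT library for any of them. Cd28 fell in cultures whose T cell markers Cd3e, Cd3d and Cd3g had 0 to 3 counts in every KO library, while of the tested T or NK cell markers Lck rose by 5.24 and Klrb1c, at 6 to 13 counts in UT and 0 to 3 in LPS libraries, was called lower. Lpin1, a phosphatidate phosphatase, and Lpar5, a receptor of lysophosphatidic acid, fell (-5.90 and -6.22). Arhgap19, Fam214a, Zfyve28 and Amz1 completed the 10 with log2 fold changes of -6.46, -6.29, -5.69 and -5.58.

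Cell cycle and DNA replication genes were mostly lower, with 22 of 32 lower, 5 higher (2 with library totals) and a median log2 fold change of -1.32. Mcm2, a subunit of the replicative helicase, went from 12.7, 13.0 and 11.1 CPM to 0.920, 1.09 and 1.02 CPM (-3.59 ± 0.177). E2f2, a transcription factor of the G1/S transition, went from 16.3, 20.8 and 16.5 CPM to 0.345, 0.338 and 0.439 CPM (-5.56 ± 0.179), and Cdk1 fell by 1.49 and Top2a by 1.33. Members that went up included the cell cycle inhibitor Cdkn1a (1.75), but also Ccnd2, a G1 cyclin, from 1.07, 1.35 and 1.85 CPM to 247, 231 and 269.5 CPM (7.43 ± 0.185), and the proliferation marker Mki67 (1.45 ± 0.0743, not called with library totals at 0.94). Pcna and Mcm6 were not called, with -0.18 and -0.25.

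DNA repair genes had the lowest median of the 35 lists, -1.88, with 15 of 20 lower and 0 higher. The checkpoint kinase Chek2 went from 18.2, 16.4 and 15.3 CPM to 0.958, 0.826 and 1.76 CPM (-3.8 ± 0.178). The homologous recombination genes Brca1 and Brca2 fell (-2.62 and -2.60). The kinases Atm and Atr that start the damage response were not called (-0.23 and -0.15).

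Among macrophage lineage transcription factors 10 of 27 were higher and 13 lower (6 and 14 with library totals). Spi1 (PU.1), the master factor of the lineage, rose by 1.24, as did Cebpb (1.09), Cebpd (2.36) and Batf (4.29). Spi1 and Cebpb were not called with library totals (0.73 and 0.58), nor was Cebpb with upper-quartile scaling (0.90). Cebpa, in contrast, went from 68.2, 63.2 and 59.8 CPM to 8.05, 9.46 and 9.15 CPM (-2.84 ± 0.0830). The factors of resting macrophages Pparg, Klf4 and Mef2c fell (-2.89, -2.77 and -2.31). Of 15 circadian clock genes 9 were lower and 0 higher, with a median of -1.10. The outputs Dbp and Per3 fell (-3.56 and -2.44), and Npas2 was at least 14.3-fold lower, while the core activators Arntl and Clock were not called (0.19 and 0.03).

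Lysosome genes had 5 of 23 lower, near the 19.3% of all genes, 0 higher and a median of -0.32, and the cathepsin genes Ctsb, Ctsd, Ctsl and Ctss were not called. With library totals 10 of the 23 were lower, and with upper-quartile scaling 9. Lipa, the lysosomal acid lipase, went from 1796, 1895 and 1882 CPM to 371, 376 and 385 CPM (-2.30 ± 0.0520), and the osteoclast-type proton pump subunit Atp6v0d2 fell by 3.09. Next to Ftl1 and Lipa, the 10 largest falls in CPM per kilobase among called genes were those of the lectin Lgals3 (2811 to 1120), the saposin precursor Psap (1455 to 727), the selenoproteins Gpx1 and Selenop, the receptor Cd300c2, the fatty acid binder Fabp5 and the histone genes Hist1h4h and Hist1h1c. Psap lay at the threshold, with -1.0, and lost its call without KO LPS replicate 1 (-0.97) or KO UT replicate 1 (-0.97) or 2 (-1.0), and with DESeq2 or RLE scaling (both -0.97). Of 10 LXR target and cholesterol efflux genes 3 were higher and 2 lower, near the shares of all genes. The cholesterol exporter Abca1 rose by 1.58 and its partner Abcg1 fell by 2.27. Of 21 cholesterol synthesis genes 1 was higher and 2 were lower, below the 17.7% and 19.3% of all genes. Their median log2 fold change was 0.04, and with library totals 0 were higher and 5 lower. Dhcr7, the last enzyme of the pathway, fell by 3.70 ± 0.195. Ighm, the heavy chain of immunoglobulin M, fell from 37.1, 38.5 and 37.8 CPM to 1.61, 1.43 and 1.46 CPM (-4.65 ± 0.115). The B cell markers Ms4a1, Cd79a and Pax5 had 0 to 4 counts in every KO library, and Cd79b, the other tested marker of these cells, fell by 3.25 ± 0.484. Whether B cells had a part in the fall of Ighm was not tested.

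Most genes called in KO were also called in WT. Of the 2741 genes higher in KO 2380 were called higher in WT, 86.8% of the KO and 80.1% of the WT list, and of the 3000 lower genes 2419 were called lower in WT, 80.6% and 83.4% of the lists. None of the higher and 3 of the lower KO genes were called in the opposite direction in WT. A test of the difference itself called 335 of 15523 genes (2.16%). Of the genes called higher in KO, 49 rose more and 39 less than in WT. Of those called lower in KO, 91 had a more negative and 11 a less negative response than in WT. The count of 335 changed to 519 without WT LPS replicate 1 and to 197 without WT LPS replicate 3. Of the 335, 81 had a higher and 254 a lower log2 fold change in KO (67 and 112 of them protein coding). Library totals in place of TMM gave 165 higher and 158 lower, which removes this imbalance. The structured RNA share of the WT libraries went the other way from that of KO, 6.29 to 6.75% in UT and 6.95 to 9.93% in LPS libraries, and with these RNAs removed 295 differences were called.

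Larger responses in KO cells included those of interferon-stimulated genes and their relatives. Slfn1, a Schlafen gene, rose by 5.38 in KO and 3.88 in WT, a difference of 1.5 ± 0.137 (edgeR adjusted p = 3.83e-07), Ifi206 by 5.12 and 3.66, and Ifi44 by 4.66 and 3.32. Vcan, the matrix proteoglycan versican, rose by 6.95 in KO and 5.50 in WT. The UT means of Vcan, Ifi44 and Slfn1 were lower in KO than in WT. Vcan was at 9.04 ± 0.398 in KO and 30.9 ± 2.65 in WT UT libraries and at 1123 ± 82.7 and 1395 ± 86.4 with LPS (mean CPM ± SD, n = 3). Ifi44 was at 16.9 ± 1.07 and 51.3 ± 2.73 in UT and at 427 ± 9.21 and 513 ± 41.5 with LPS. Slfn1 was at 2.95 ± 0.541 and 7.73 ± 1.07 in UT and at 124 ± 1.53 and 114 ± 4.51 with LPS, the last pair being slightly higher in KO. These levels were not tested between genotypes. Among the 30 interferon-stimulated antiviral genes 3 were called for the difference and of 7 Schlafen genes also 3, all of them larger in KO, beside 2.16% of all genes. These were Ifi44, Ifit2 and Oasl1, and Slfn1, Slfn4 and Slfn9. Ifit2 lay at the threshold and was not called without WT LPS replicate 3 (0.96). Oasl1 was not called without KO LPS replicates 2 or 3 (0.99 each), KO UT replicate 3 (0.96) or WT LPS replicate 3 (0.98). Smaller responses in KO were seen for Scimp, an adaptor of Toll-like receptors (5.48 against 7.20). Among list members they were seen for Il10 (3.52 against 4.95), Cxcl1 (6.06 against 7.36) and Timp1 (5.93 against 7.17). Scimp had only 3 to 25 counts in UT libraries, and its level with LPS was not lower in KO. It was at 0.527 ± 0.224 against 0.140 ± 0.0910 CPM in UT and at 23.7 ± 0.848 against 21.2 ± 2.17 CPM with LPS. For Cxcl1 the KO mean was the higher in both states, 5.97 ± 0.382 against 1.46 ± 0.0943 CPM in UT and 399 ± 14.1 against 239.7 ± 9.41 CPM with LPS. Timp1 started higher in KO UT libraries, 2.77 ± 0.204 against 1.16 ± 0.0338 CPM, and was at 169 ± 4.33 against 167 ± 30.8 CPM with LPS. Il10 was at 8.65 ± 0.720 against 4.82 ± 0.429 CPM in UT and at 99.1 ± 3.28 against 149 ± 10.5 CPM with LPS. Cxcl5, whose mean was below 5 CPM, had the most negative called difference of the chemokines (1.92 against 4.15, edgeR adjusted p = 0.0261). Markers of other cells were also called for the difference, 3 of 7 tested for neutrophils (S100a8 -1.05, Mpo -3.57 and Camp -1.98) and 2 of 7 for stroma (Col1a2 1.38 and Col3a1 1.85), and their part in the differences was not tested. Hist1h3c fell further in KO (-2.91 against -1.25). Scand1 (-0.76 in KO and 0.99 in WT) and Cx3cr1 (0.39 and -0.66) had responses of opposite sign, none of which was called. Lad1, Ptx3 and Serpina3g had at most 30 counts in any UT library, and their calls were not stable. Lad1 (difference 1.54), Ptx3 (-2.57) and Serpina3g (-1.80) lost them with a replicate block (edgeR adjusted p = 0.0794, 0.0573 and 0.0605). Lad1 also lost its call without KO LPS replicates 2 or 3, KO UT replicates 2 or 3, WT LPS replicates 2 or 3 or WT UT replicates 1 or 3, with differences from 1.19 to 1.55. Ptx3 lost it without KO LPS replicate 3, KO UT replicates 1 or 2, WT LPS replicate 2 or WT UT replicates 1 or 2, with differences from -2.58 to -1.88, and with DESeq2 (adjusted p = 0.108). Serpina3g lost it without KO LPS replicates 1 or 3, KO UT replicates 1 or 3, WT LPS replicate 2 or WT UT replicates 2 or 3, with differences from -1.85 to -1.38.

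**Figure D5:**
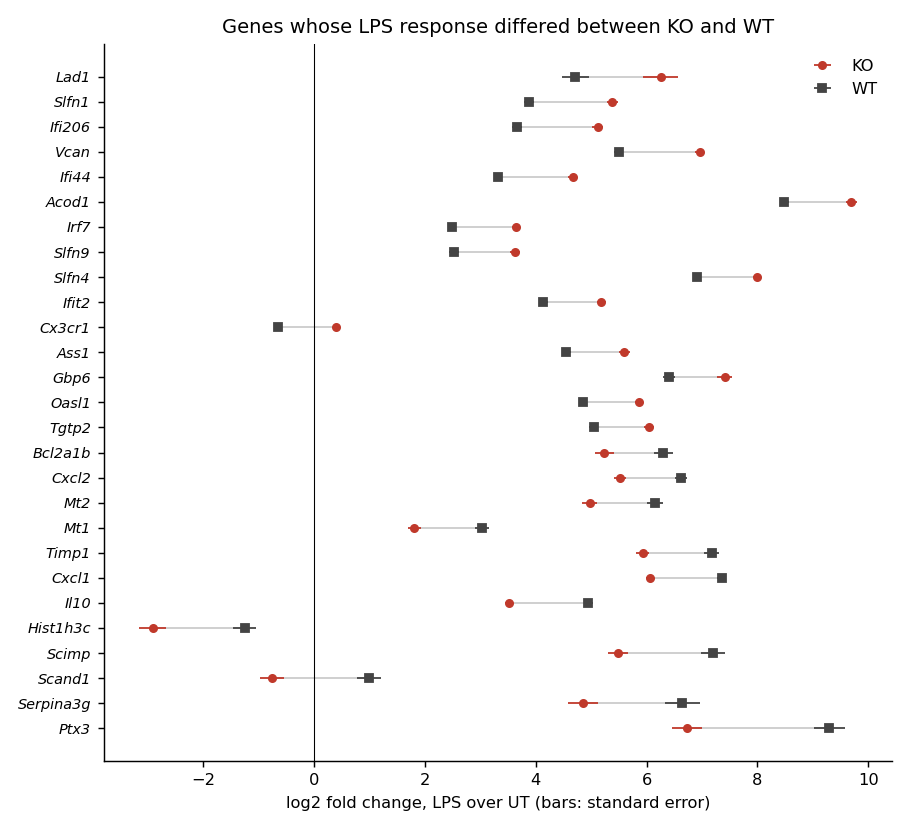
log2 fold change of LPS over UT in KO (red circles) and WT (black squares) for 27 named genes whose response differed between genotypes. Bars are the SE, which can be too small for genes with few UT counts. Genes are ordered by the difference, from Lad1 with the larger response in KO to Ptx3 with the larger response in WT.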

How the data were processed

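Total RNA of BMDMs was sequenced from TruSeq Stranded Total RNA Globin libraries. The authors deposited raw gene counts, and the submitters' processing notes name FastQC 0.11.9, HISAT2 2.1.0, SAMtools 1.17, featureCounts 2.0.0 and GRCm38. The annotation release, strand setting and treatment of reads with several matches are not given in the sources used here. Overlapping and near-identical genes are therefore uncertain.

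Samples were grouped by their labels. Some members of the gene lists are counted but not reported here by name. Of 48526 gene IDs, 48144 matched GENCODE, and 22406 genes had no count in any library. Genes with enough counts (filterByExpr, minimum 10 per library and 15 in all) were tested in all 12 libraries, with TMM scaling and a model of the 4 group means, by the edgeR 4.0.16 quasi-likelihood test (R 4.3.3, limma 3.58.1) with Benjamini-Hochberg adjustment. The scripts recovered set fold changes in simulated counts. That simulation changed a small set of well-counted genes, equally up and down, so it did not test the scaling. The gene lists, markers and the rule for named genes were chosen with earlier results of these data known. The rule took Tnf, the called protein-coding genes without overlap between KO groups with the 10 largest fold changes and 10 largest changes in CPM per kilobase each way (mean of at least 5 CPM in KO), and the 5 largest called differences between genotypes each way (mean of at least 5 CPM over the 12 libraries). List members given as examples were picked after their values were seen. A group whose libraries all held at most 3 counts was set to 3 counts per library for a fold bound. Depth was 29430634 to 33629094 counts per KO library, and the biological coefficient of variation was 0.0712. Promoter sequences came from RefSeq (GRCm38.p6).

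The labels number the replicates of each group alike, so same-numbered libraries were treated as possible pairs. The deviations of 18 same-numbered pairs from their group means correlated between -0.0631 and 0.0373, and 0 were over 0.1. Replicates differed by more than counting noise (chi-square per degree of freedom at least 3.73), so none was counted as a duplicate. Alternatives were DESeq2 1.42.0, other scalings and filters, removal of structured RNAs or of the 10 most-counted genes, the KO libraries alone, a replicate block and leaving out each library. Values were handled and plotted with Python 3.11.15, pandas 2.3.3, numpy 2.4.6 and matplotlib 3.10.9.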

Additional observations from a re-analysis of the deposited data

Results flagged for a closer look

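Each of these 27 genes was set apart because its LPS response differed between KO and WT cells in the edgeR test of the difference (the log2 fold change in KO minus that in WT). They are the protein-coding genes with the 5 largest differences each way and the called members of the gene lists, all with a mean of at least 5 CPM over the 12 libraries. List members below that level were also called, namely Cxcl5 (-2.23), Rrm2 (1.55) and Timp3 (1.05), and so were Hist1h4h (-1.46) and the markers of other cells given above. None was weighed against an explanation. Groups of 3 libraries are too small for a search for outlying libraries.

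The response was larger, or less negative, in KO for Lad1 (1.54), Slfn1 (1.5), Ifi206 (1.46), Vcan (1.46) and Ifi44 (1.34). It was also so for Acod1 (1.21), Irf7 (1.15), Slfn9 (1.10), Slfn4 (1.08), Ifit2 (1.05), the fractalkine receptor Cx3cr1 (1.05), Ass1 (1.04), Gbp6 (1.0), Oasl1 (1.0) and Tgtp2 (1.0). Reads of the Slfn, Ifi200 and Tgtp families are uncertain between near-identical copies.

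The response was lower in KO for Ptx3 (-2.57), Serpina3g (-1.80), Scand1 (-1.75), Scimp (-1.72) and Hist1h3c (-1.66). The same direction held for Il10 (-1.43), Cxcl1 (-1.30), Timp1 (-1.24), the metallothioneins Mt1 (-1.22) and Mt2 (-1.17), Cxcl2 (-1.10) and Bcl2a1b (-1.06). Of the 27 genes, 17 kept their call in all 23 alternatives. The exceptions were Lad1 (lost in 11), Tgtp2 (9), Ptx3 and Serpina3g (8 each), Oasl1, Gbp6 and Bcl2a1b (7 each), Ass1 (3), and Ifit2 and Cxcl2 (1 each). No direction reversed in these alternatives.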

How the results depend on the processing

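The KO response of 5741 called genes (2741 higher, 3000 lower) became 11295 (5445 and 5850) without a fold change minimum. With library totals alone, an alternative chosen after seeing the data, it was 1794 higher and 5119 lower. Upper-quartile scaling gave 2324 and 3643, DESeq2 2849 and 2907. Leaving out each KO library gave 5682 to 5789 calls, 2703 to 2776 higher and 2947 to 3016 lower. The replicate block gave 5721 calls. No gene was called in the opposite direction under any of these alternatives. The difference between genotypes, 335 genes, was 2611 without a fold change minimum, 186 when protein-coding genes were scaled and tested alone (of the 335, 67 higher and 112 lower differences were of protein-coding genes), 270 with the replicate block, 330 with DESeq2, and 197 to 519 without single libraries. Of 10388 values of 579 genes under the alternatives, 10009 kept their call, 101 lost one and 225 gained one. Another 53 values, uncalled in both fits, changed sign and moved by at least the SE of the main fit. No value called in either fit changed sign. Of 1260 list counts 54 moved by over 1.5 times. The blocked fit changed, among the 27 genes with a difference listed above, the calls of Lad1, Ptx3 and Serpina3g, and no call of the KO response for the named genes or list members. Genes with at most 3 counts in a group have only a bound on their fold change, and 1 time point and dose were measured.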
